A study of Mus musculus with 6 samples.

Results

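The gene expression of the control cochlea at postnatal day 9 (P9) was described from the 3 control libraries among the 6 libraries of the series. They were chosen by their label, with genotype WT, and no value of the Kir2.1-OE libraries entered any result. The mice were littermate controls, heterozygous for Otof rtTA on the C57BL/6N background, and they carried no Kir2.1 transgene. Their pregnant and nursing dams drank water with DOX at 0.5 mg/ml, so the controls were free neither of exposure to DOX nor of rtTA, which the Otof promoter drives mainly in inner hair cells. Each library was made from 1 pool of 8 cochleae from 4 mice, of which the sensory epithelium was dissected and snap frozen, so the pool is the replicate (n = 3) and errors are SD over 3 pools.

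The organ of Corti is the sensory epithelium of the cochlea. Inner hair cells pass sound on to spiral ganglion neurons, outer hair cells amplify the vibration, and supporting cells hold both kinds of hair cell and join them through gap junctions. The tectorial membrane lies over the hair bundles and is secreted by the supporting and interdental cells beside them. At P9, before the onset of hearing, the inner hair cells fire spontaneously. The tectorial membrane is still being built and the bone of the cochlear capsule is being laid down around the duct.

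Between 37063812 and 41205047 reads were assigned to genes per library, and the level of a gene is given as counts for each 1000000 assigned reads (CPM). Where a gene had 0 reads, a level of up to 0.0809 CPM remained possible (3 counts, at the lowest total), and this bound takes account of counting error alone. CPM grows with transcript length, so levels are compared between genes, and between lists of genes, only in transcript units (TPM), here the CPM divided by the longest annotated transcript and scaled to a total of 1000000 in every pool. The log2(CPM + 1) values of the pools correlated across 16436 genes with Pearson's r between 0.9947 and 0.9962, a description over genes, which are not independent replicates. The common biological coefficient of variation between pools was 0.108 (edgeR, 14830 genes), and the median CV of the CPM was 8.62% over the 15289 genes with a mean of at least 10 counts. A gene was called variable when the counts of the 3 pools differed beyond counting error (chi-square test, adjusted p-value under 0.05) and its highest CPM was at least 1.5 times its lowest. This held for 1657 of the 15289 genes, or 10.8%, and the counts of 9103 genes, or 59.5%, differed beyond counting error. Variable genes were mostly low: of the 10144 genes with a mean of at least 10 CPM, 304 were variable, or 3%. With 1 pool left out the variable share of all genes was 4.85% without replicate 1, 6.66% without replicate 2 and 5.75% without replicate 3. A count of variable genes in a list is to be read against these shares for the same pools and level, also where they are not repeated. Leaving out the pool that is highest or lowest for a gene can only lower its ratio, so a smaller count then follows in part from the rule. The chi-square test holds counting error alone as its null, so it compares these pools and not conditions, and in tissue RNA a smaller number of cells of a type and less RNA per cell cannot be told apart.

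Markers of the labelled tissue were detected, with reads of all 26 shared hair cell genes and all 17 supporting cell genes in every pool, and so were markers of nerve, bone, vessels and blood beside it. The reads were spread over many genes. The 10 highest genes of each pool held between 6.09% and 6.19% of its reads, the 100 highest between 20.6% and 21.1%, and the 1000 highest between 52.0% and 52.6%. Of the 24411 genes listed, 13556 reached 1 CPM in every pool, 1988 reached 100 CPM and 86 reached 1000 CPM, and 6280 had no count in any pool. Of the 20 genes with the most reads in each pool, 17 were common to the 3 pools.

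Genes of inner ear matrix and of secretion stood beside those of general metabolism at the head of the libraries. Eef1a1, a translation elongation factor, had 14329.8, 11936 and 11731 CPM in control replicates 1, 2 and 3. It was followed by Sparc, which encodes a collagen-binding matrix protein, with 6638, 8380.2 and 9017 CPM, and by the cartilage collagen gene Col2a1 with 6865, 8350.5 and 7492 CPM. Tectb, which encodes the tectorial membrane protein beta-tectorin, had 7562, 5777 and 4793 CPM. It was thus among the 10 highest genes of these libraries, and replicate 1 lay above the other pools. Epyc, a proteoglycan gene of cochlear supporting cells, had 4334 ± 59.03 CPM, and Otos, which encodes the fibrocyte protein otospiralin, 4262 ± 1075 CPM. Of the 20 highest genes by CPM, 2 were variable between the pools, Tectb and Otos, and their pools were ordered in opposite ways. For Otos the values were 3177, 4282 and 5326 CPM, so that replicate 1 was the lowest pool where it was the highest for Tectb. Rn45s, the ribosomal RNA precursor, was listed with 4718, 5416 and 4199 CPM although poly(A) RNA had been selected.

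**Figure D1:**
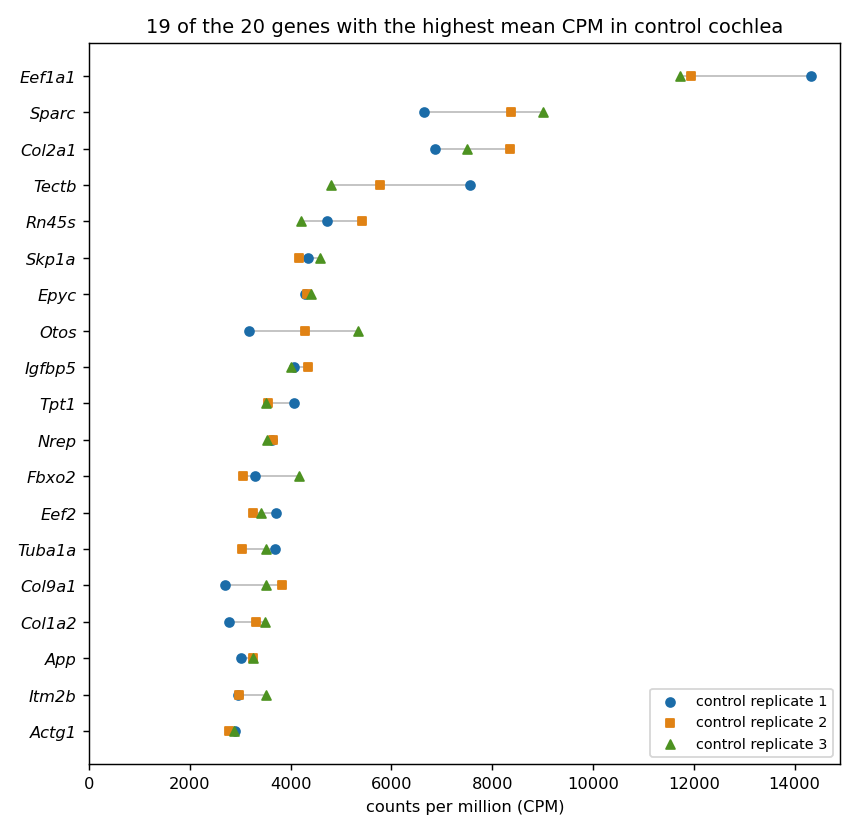
The CPM of each control pool (x axis, linear, from 0) is plotted for 19 of the 20 genes with the highest mean CPM (y axis), with 1 symbol per pool and a grey line from the lowest to the highest. Tectb spans 4793 to 7562 CPM and Otos 3177 to 5326 CPM, with the pools in opposite order, while the 3 symbols of Epyc nearly coincide.

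Per transcript length, 11 of these 20 genes remained among the 20 highest. Eef1a1 had 16818 ± 1775 TPM, Sparc 8308 ± 1324 TPM and the short transcript of Otor, which encodes otoraplin, a small secreted protein of the cochlea, 5399 ± 336 TPM. The pools gave 5176, 5235 and 5786 TPM for Otor, a CV of 6.5%. Fbxo2 and Skp1a encode partners in an SCF ubiquitin ligase and are known for high levels in the organ of Corti. They had 6035, 5734 and 7679 TPM and 5836, 5724 and 6218 TPM, a ratio of 1.03, 1.00 and 1.24 in replicates 1, 2 and 3, with replicate 3 highest for Fbxo2. The level per length depends on the transcript assumed: with the median annotated transcript in place of the longest, 12 of the 20 highest genes by TPM remained.

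The promoters of Tectb, Otos and Otor are printed because they are the 3 genes named for inner ear proteins outside a collagen or general matrix role that lay among the 25 highest by CPM, a choice made after their levels were seen. The sequences are RefSeq promoters of the GRCm38.p6 assembly, from 250 bases before to 50 after the annotated start, 5′ to 3′ on the gene's strand. They lie at chr19:55180476-55180775 on the plus strand for Tectb, at chr1:92648792-92649091 on the minus strand for Otos and at chr2:143078143-143078442 on the plus strand for Otor. Capitals mark the letters TATAAA or TATATA, searched on both strands, which can overlap each other.
Tectb: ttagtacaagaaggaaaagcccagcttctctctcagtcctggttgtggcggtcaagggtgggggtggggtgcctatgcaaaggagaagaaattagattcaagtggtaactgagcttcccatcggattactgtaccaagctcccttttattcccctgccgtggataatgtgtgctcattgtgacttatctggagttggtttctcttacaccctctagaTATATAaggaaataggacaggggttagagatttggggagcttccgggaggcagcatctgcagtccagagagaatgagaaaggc
Otos: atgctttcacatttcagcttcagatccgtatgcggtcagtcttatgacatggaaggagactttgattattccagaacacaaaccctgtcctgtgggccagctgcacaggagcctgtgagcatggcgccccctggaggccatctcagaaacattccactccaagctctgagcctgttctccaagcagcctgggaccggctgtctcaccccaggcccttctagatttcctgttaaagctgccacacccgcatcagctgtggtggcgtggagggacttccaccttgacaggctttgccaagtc
Otor: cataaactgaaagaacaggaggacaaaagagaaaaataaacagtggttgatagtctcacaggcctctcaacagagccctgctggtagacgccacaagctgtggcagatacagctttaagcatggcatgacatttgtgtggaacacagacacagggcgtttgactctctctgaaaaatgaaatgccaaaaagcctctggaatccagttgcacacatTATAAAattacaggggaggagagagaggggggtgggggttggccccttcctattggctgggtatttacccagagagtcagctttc
In Tectb the letters TATATA begin 33 bases before the start and in Otor the letters TATAAA begin 35 bases before it, whereas neither run of letters was in the Otos window. Of all 32851 promoters of this length in the table, 13.6% held TATAAA, 5.67% TATATA and 17.1% either. Among the genes with a single promoter, either was present in 16 of the 62 that belonged to the 100 highest by TPM, 25.8%, and in 812 of 9189 that passed the count minimum, 8.84%. These matches describe letters and not sites of binding.

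Hair cell genes were detected in every pool at low to middle levels. All 26 genes of the shared hair cell list passed the count minimum, 25 of them with at least 1 CPM in each pool. Their summed level was 1135, 1089.7 and 1079 CPM, or 0.11% of the reads on average, of which Myo6 gave 31.2%. Pvalb, which encodes the calcium buffer parvalbumin, was the highest of the list per length with 339, 351 and 325 TPM. Cib2, a calcium-binding partner of the transduction channel, had 171, 147 and 177 TPM, and Myo6, an unconventional myosin of the hair cell apex, 102, 109 and 99.001 TPM. Myo7a, the myosin that is commonly used to stain hair cells, was much lower, with 7.62, 7.62 and 6.15 TPM. Of the genes of the transduction apparatus, Lhfpl5 had 59.2 ± 4.28 TPM, Tmc1 29.5 ± 2.74 TPM and Tmie 4.52 ± 0.257 TPM. The ratio of Lhfpl5 to Tmc1 was 2.04, 2.07 and 1.93 in the 3 pools. The tip link genes Cdh23 and Pcdh15 had 2.95, 2.69 and 1.83 TPM and 2.16, 2.71 and 2.57 TPM, so that they were close to each other and their order was not the same in each pool. The subunits of the efferent acetylcholine receptor, Chrna9 and Chrna10, were likewise close, with 43.2, 36.2 and 39.9 TPM and 36.5, 35.1 and 32.6 TPM. The transcription factor genes Pou4f3 and Gfi1, which hair cells need for survival, had 31.4 ± 3.36 TPM and 14.98 ± 2.03 TPM. Atoh1, the factor that starts hair cell formation, had 1.16, 0.825 and 0.621 CPM. Variable were 2 of the 26, Cdh23 and Grxcr1, both highest in replicate 1, and of the 18 genes of the list with at least 10 CPM 1 was variable. These counts were near the shares of all genes, 10.8% and 3%. Without replicate 1, where the share of all genes was 4.85%, the count was 0. The median CV of the 26 genes was 10.1%, against 8.62% for all genes.

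Of the genes that mark inner hair cells, none of 8 was variable. As 10.8% of all genes tested were variable, a count of 0 in so short a list does not show that it was even. Otof, the calcium sensor of the ribbon synapse, had 20.7, 21.9 and 14.8 TPM and Slc17a8, the vesicular glutamate transporter, 19.01, 22.4 and 24.99 TPM, so that Otof lay above Slc17a8 in replicate 1 and below it in replicates 2 and 3. Rprm, a gene known as a brake on the cell cycle, led the list with 226, 217 and 224 TPM. Rprm was followed by Atp2a3, a calcium pump of the endoplasmic reticulum, at 95.6, 100.1 and 117 TPM and Tbx2, a transcription factor of inner hair cell identity, at 53.4, 59.6 and 54.2 TPM. Fgf8 and Dnajc5b were low, with 7.67 ± 1.44 and 2.23 ± 0.597 TPM. The summed level of the 8 genes was 543, 565 and 578 CPM and their median CV 15.4%, against 8.62% for all genes. Atp2a3, Rprm and Tbx2 gave most of the sum, with mean levels of 201, 136 and 84.8 CPM, against 59.5 for Otof and 41.4 for Slc17a8. Which cells these reads came from was not tested.

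The outer hair cell list was led by Ocm, the gene of the calcium buffer oncomodulin, which had 1864, 2017 and 2466 TPM and made up 55.7% of the summed CPM of the list. Slc26a5, which encodes the motor protein prestin, had 91.1, 63.3 and 88.5 TPM, with replicate 2 the lowest pool. Ocm was therefore 26.7 ± 5.77 times the level of Slc26a5 per length. Strc, a gene of the links between stereocilia, had 25.9 ± 2.24 TPM. Neurod6 had no count in any pool, and Insm1, which is active in outer hair cells before this age, had 0.913, 0.68 and 1.16 CPM. None of the 7 genes that passed the count minimum was variable, against 10.8% of all genes tested, again a short list. The summed level of 1011, 968 and 1168 CPM was highest in replicate 3, and the median CV was 13.9%, against 8.62% for all genes. In summed TPM the list was 5.38 ± 0.565 times the inner hair cell list, a ratio that rests on the genes chosen and on Ocm.

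Genes of supporting cells were more abundant. The 17 genes summed to 8018, 8481 and 8762 CPM. In summed TPM they were 7.52 ± 0.424 times the 26 genes of the shared hair cell list. Epyc gave 51.5% of the summed CPM, at 3978, 4111 and 4116 TPM, one of the most even genes across the pools with a ratio of highest to lowest of 1.03. The gap junction gene Gjb2 had 928, 1112 and 1199.8 TPM and its partner Gjb6 211, 244 and 302 TPM, a ratio of 4.31 ± 0.302. Emilin2, a matrix glycoprotein gene of the basilar membrane, had 673, 955 and 982 TPM, with replicate 1 lowest. Sox2, the transcription factor of supporting cells, had 157, 129 and 101 TPM, the reverse order of the pools to that of Gjb2, Gjb6 and Emilin2. Fgfr3 and Prox1, which mark pillar and Deiters' cells, had 106 ± 4.98 and 2.33 ± 0.482 TPM. Slc1a3, the glutamate transporter of the cells around inner hair cells, had 108 ± 10.998 TPM. Variable were 6 of the 17 genes, Sox2, Prox1, Npy, Ngfr, Hes5 and Jag1, against 10.8% of all genes tested. All 6 were highest in replicate 1 and lowest in replicate 3, against 396 of 1657 variable genes over the whole table with that order. Hes5, a target of Notch signalling, had 1.61, 0.849 and 0.432 CPM and the neuropeptide gene Npy 37.4, 25.4 and 16.3 CPM. The count was 2 without replicate 1 and 1 without replicate 3, where the shares of all genes were 4.85% and 5.75%. Of the 15 genes of the list with at least 10 CPM, 4 were variable, against 3% of all genes at that level.

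The 6 tectorial membrane genes held 9356, 7050.3 and 5944 CPM, and replicate 1 was the highest pool. Tectb made up 81.1% of the sum. Tecta, which encodes alpha-tectorin, the other major noncollagenous protein of this membrane, had 224, 106 and 53.8 TPM against 6547, 5120.4 and 4179.6 TPM of Tectb. Both genes were variable and highest in replicate 1, but Tecta by far the more, with 4.19-fold between the highest and lowest pool against 1.58-fold. The ratio of Tectb to Tecta was thus 29.3, 48.5 and 77.7 in replicates 1, 2 and 3. Otog and Otogl, which encode otogelin and its relative, had 123, 92.5 and 85.6 and 59.8, 43.2 and 46.9 TPM, also highest in replicate 1. Otoa, which anchors the membrane to the interdental cells, had 190.2, 228 and 245 TPM and did not share this order. Ceacam16, known to become abundant as hearing begins, had 0.537, 0.889 and 2.1 CPM, the lowest level of the list. The count of variable genes among the 6 was 3, with Ceacam16, against 10.8% of all genes tested. It was 1 when replicate 3 was left out, where the share of all genes was 5.75%.

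Neuronal genes were present at low levels and were the lowest in replicate 3. The 18 genes of the spiral ganglion list summed to 537, 633 and 416 CPM. Tubb3, a neuronal tubulin, had 97.8, 97.7 and 70.6 TPM. The neurofilament genes Nefl, Nefm and Nefh, which encode the light, medium and heavy subunits, had 42.7, 61.4 and 36.8 TPM, 41.2, 66.1 and 29.8 TPM and 20.2, 30.7 and 12.8 TPM. Replicate 2 was the highest and replicate 3 the lowest pool for each subunit, and the ratio of Nefm to Nefh moved little, at 2.04, 2.15 and 2.32. The glutamate transporter gene Slc17a7 had 33.2 ± 5.18 TPM and Slc17a6 4.73 ± 1.08 TPM, and Snap25, a gene of vesicle fusion, 30.6 ± 5.26 TPM. Prph, a marker of type II neurons, had 1.6, 1.82 and 1.62 TPM and did not part the pools. Variable were 10 of the 18 genes, of which 9 were lowest in replicate 3 and 8 highest in replicate 2, where 4.65% and 4.27% of all genes tested were variable and had that lowest or highest pool. Without replicate 3 the count was 2 and without replicate 2 it was 4, where the shares of all genes were 5.75% and 6.66%. Of the 10 genes with at least 10 CPM, 5 were variable, against 3% of all genes at that level.

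Schwann cell genes far exceeded the neuronal ones. The summed level of the 15 glial genes was 8393, 10363 and 10757 CPM. In summed TPM they were 23.8, 25.1 and 40.6 times the spiral ganglion list in the 3 pools, with replicate 3 apart from the others. This ratio rests on the genes chosen and on the highest of them. The gap was smaller by median TPM, with 123, 168 and 143 for the glial list and 18.3, 20.1 and 14.3 for the spiral ganglion list. Pmp22, a gene of compact peripheral myelin, had 1450.4, 1809.7 and 1902 TPM and Mbp, which encodes myelin basic protein, 569, 759 and 692 TPM. S100b had 997, 1404 and 1745 TPM. It was variable, as were Prx and Ncmap, all 3 lowest in replicate 1. Of all genes tested, 4.21% were variable and lowest in that pool. Sox10, a transcription factor of glia that cochlear supporting cells also express, was even, with 208, 209 and 199 TPM, and so was the Schwann cell factor Egr2 with 15.5, 18.2 and 17.8 TPM. Without replicate 1, where the share of all genes was 4.85%, none of the 15 genes was variable.

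Several genes of the central glia list were low and differed strongly between the pools. Mog, a myelin protein of oligodendrocytes, had 154, 19 and 1 counts in replicates 1, 2 and 3, Mobp 110, 28 and 9 counts and the factor Olig1 64, 53 and 1 counts. Gfap, a filament gene used as an astrocyte marker, had 6.8, 2.91 and 0.89 CPM, and which cells its reads came from was not tested. Variable were 5 of the 9 genes of this list that passed the count minimum, against 10.8% of all genes tested. All 5, with Olig2, were highest in replicate 1 and lowest in replicate 3. Opalin had no count in any pool, and Myrf, Mag, Aqp4 and Aldoc were not variable, the last 3 of which Schwann or supporting cells also express. At these levels the sum of the list is set by Aldoc, which held 63.2% of it.

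Matrix genes took the largest share of reads of the cell and tissue lists. The 22 cartilage and bone genes summed to 16558, 22814 and 21812 CPM, 2.04% of the reads, and the 20 fibrillar and mesenchymal matrix genes to 14152, 16767 and 17104 CPM. Among the collagens of type II and IX fibrils, Col2a1 had 3173, 3952 and 3488 TPM, Col9a1 1658, 2413 and 2172 TPM, Col9a2 1721, 2357 and 2077 TPM and Col9a3 955, 1254 and 1137 TPM. Collagen II is also a component of the tectorial membrane, so these genes do not mark cartilage alone. The chains of type IX kept a near-constant proportion, with a Col9a1 to Col9a2 ratio of 0.963, 1.02 and 1.05 and a Col9a3 to Col9a2 ratio of 0.555, 0.532 and 0.548. Col11a2 had 535 ± 103 TPM and Col11a1 263 ± 50.8 TPM. Several other cartilage genes were lower: Acan, the gene of the main cartilage proteoglycan, had 8.37, 11.7 and 14.2 TPM, Matn4 42.97, 65.7 and 67.1 TPM, Matn1 10.4, 9.4 and 8.2 TPM and Comp 0.188, 0.121 and 0.108 CPM. Matn3 had 6, 1 and 0 counts, and Col10a1, the collagen of hypertrophic cartilage, had 0.645, 0.485 and 0.648 CPM. Cnmd, which encodes chondromodulin and is listed under its older symbol Lect1, was higher, at 1112, 1357 and 1301 TPM.

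Genes of mineralizing bone differed up to 6.81-fold between the pools. Ibsp, bone sialoprotein, had 710.3, 1911 and 2611 CPM and Bglap, osteocalcin, 67.5, 243 and 459.9 CPM in replicates 1, 2 and 3. The osteocyte genes Dmp1 and Phex had 26.7, 97.3 and 171 CPM and 31.4, 62.9 and 80.7 CPM, with replicate 1 lowest and replicate 3 highest for each of these 4 genes. The osteoblast factors Sp7 and Runx2 and the phosphatase gene Alpl had 24.6, 48.7 and 44.6, 20.4, 35.5 and 29.7 and 64.5, 126 and 122 CPM, also lowest in replicate 1 but highest in replicate 2. Spp1, osteopontin, had 101, 121 and 84.1 CPM and was not variable. Of the 20 genes of the list that passed the count minimum, 9 were variable, and all 9 were lowest in replicate 1, where 4.21% of all genes tested were variable and lowest in that pool. Without replicate 1 the count was 2, where the share of all genes was 4.85%. The 9 genes all had at least 10 CPM, as did 18 of the list, against 3% of all genes variable at that level. Bglap lies beside a near-identical copy, Bglap2, and is annotated on chromosome 3 from 88383501 to 88384464 of mm10, so the split of reads between them is uncertain, but Bglap2 had the same order, with 46.8, 156 and 297 CPM.

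**Figure D2:**
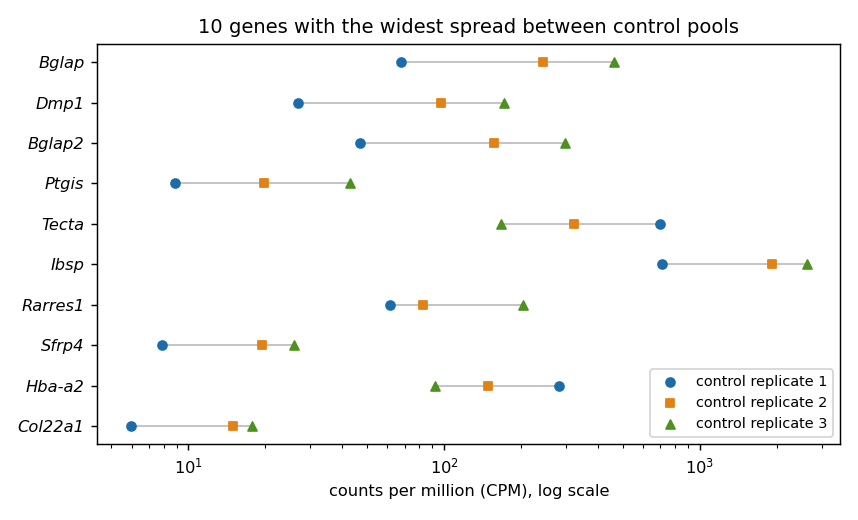
The CPM of each control pool (x axis, log scale) is plotted for the 10 genes with the largest ratio of highest to lowest CPM among variable genes with a mean of at least 10 CPM (y axis). Tecta and Hba-a2 are highest in replicate 1 (circles), and for the other 8 genes replicate 1 is the lowest pool.

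Among the fibrillar and mesenchymal matrix genes, Sparc gave 50.05% of the sum. Lum, a small proteoglycan gene, had 2011, 1975 and 1893 TPM and Dcn 264, 302 and 271 TPM. Col1a2 had 1225, 1499 and 1548 TPM and Col3a1 297, 405 and 334 TPM. Col1a1, which encodes the other chain of type I collagen, had 22.5, 46.5 and 41.7 TPM, or 0.0183, 0.031 and 0.0269 of the level of Col1a2, although type I collagen holds more of the Col1a1 chain than of the Col1a2 chain. No such gap was present between Col4a1 and Col4a2, the paired chains of basement membrane collagen, whose ratio was 0.79, 0.877 and 0.833. The GC content of the longest transcripts of Col1a1 and Col1a2 is 58.9% and 55.7%, and its part in the gap was not tested. Variable were 4 of the 20 genes, Col1a1, Col5a2, Fbn1 and Tnc, against 10.8% of all genes tested. The count was 1 without replicate 1 and 2 without either of the others. The shares of all genes were then 4.85%, 6.66% and 5.75% without replicates 1, 2 and 3. Fn1 had 126 ± 18.7 TPM, and the elastic fibre genes Eln and Fbn1 72.6 ± 7.08 and 8.57 ± 1.79 TPM.

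The 16 basement membrane genes summed to 2224, 2576 and 2163 CPM. Lamc1 led with 163, 199 and 169 TPM, ahead of Lamb1 and Lamb2 with 65.4 ± 13.3 and 61.4 ± 1.28 TPM, and the alpha chains were lower. Lama2 had 23.4 ± 4.05, Lama4 21.8 ± 3.79, Lama5 13.8 ± 3.27 and Lama1 0.412 ± 0.177 TPM. The difference between Lamb1 and Lamb2 was within their spread. Replicate 2 was the highest pool for 13 of the 16 genes, against 35% of all genes tested, although only Lama1 and Lama5 were variable. The median transcript of the list was 7118 nt. The median log2 ratio of the list was 0.257 for replicate 2 over 1 and -0.244 for replicate 3 over 2. These ratios were 0.0323 and -0.0612 over the 4867 genes from 4000 to 8000 nt. Over the 880 genes of at least 8000 nt they were 0.075 and -0.184. With offsets for transcript length and GC content, chosen after seeing the data, 1 gene of the list was variable. The order of the pools was not examined with these offsets, so the part of transcript length in it was not tested.

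Fibrocytes of the spiral ligament and limbus were represented by high levels of Otos and of Coch, the gene of cochlin, a matrix protein of these cells. Otos had 2507, 3459 and 4233 TPM and Coch 1171, 1602 and 2146 TPM. Both were variable, and their ratio stayed at 2.14, 2.16 and 1.97. Car3, a carbonic anhydrase gene, had 267, 379 and 390.3 TPM with the same lowest and highest pool. The fibrocyte transcription factor genes Pou3f4 and Tbx18 did not take this course, with 39.996, 40.1 and 44.5 and 84.96, 84.6 and 79.8 TPM. Without replicate 1, and likewise without replicate 3, none of the 7 genes was variable. The shares of all genes were then 4.85% and 5.75%.

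The stria vascularis, which makes the potassium-rich endolymph, was represented thinly by its defining genes. Kcnq1 had 7.49, 6.89 and 7.79 TPM and its partner Kcne1 0.16, 0.517 and 0.323 TPM, and Esrrb was at 0.645, 0.825 and 0.648 CPM. Of the 10 genes of the list, Kcne1 alone was variable. The ion transport genes Atp1b2 and Kcnj10, which supporting cells, neurons or glia use as well, had 180.4 ± 12.7 and 98.1 ± 12.6 TPM. Cldn11, the tight junction gene of basal cells that myelinating cells of the central nervous system also use, had 159 ± 7.43 TPM. Melanocyte genes were low: Dct, Pmel and Tyr had 9.05 ± 1.67, 11.3 ± 0.482 and 0.615 ± 0.258 TPM. Variable were 3 of the 7 melanocyte genes that passed the count minimum, against 10.8% of all genes tested. The 3 were Tyr, Tyrp1 and Slc45a2, none of which reached 10 CPM.

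Genes of red blood cells were highest in replicate 1 throughout. Hba-a1, an alpha-globin gene, had 798, 282 and 329 CPM and Hbb-bt, a beta-globin gene, 83.1, 37.2 and 39.6 CPM. All 7 erythroid genes were variable and highest in replicate 1, where 3.86% of all genes tested were variable and highest. The sum of the list was 1203, 482 and 478 CPM, so replicates 2 and 3 lay close together in this sum. Without replicate 1 the count of variable genes was 1, where the share of all genes was 4.85%. Beta-globin reads were also listed under Hbb-b1 and Hbb-b2, which are not in the list and were added after their values were seen, with 931, 435 and 431 CPM and 82.7, 37.5 and 39.8 CPM, so Hbb-bt does not give the whole beta-globin level. Hba-a1 and Hba-a2 are near-identical, and the beta-globin genes share most of their sequence, so the division of reads among them is uncertain. Macrophage genes had 230.3, 239 and 245 CPM in sum, and none of 10 was variable, against 10.8% of all genes tested. C1qa, a complement gene of tissue macrophages, had 94.99, 97.5 and 109 TPM, and Ptprc, the common leukocyte gene, 0.927, 0.878 and 0.927 TPM. The 13 genes of endothelium and pericytes summed to 448, 526 and 514 CPM, with Emcn at 107 ± 2.86 TPM, and Pecam1 and Cdh5 were variable and lowest in replicate 1, and neither remained so without replicate 1 or without replicate 2. Skeletal muscle genes reached 5.51, 1.65 and 1.43 CPM in sum, and Myh3 and Myh4 had no count in any pool. Of the 3 muscle genes that passed the count minimum 2 were variable, against 10.8% of all genes tested, both highest in replicate 1. Genes of cell division summed to 14.2, 16.4 and 15.4 CPM, with 1 of 6 variable, against 10.8% of all genes tested.

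Immediate-early genes, which neurons and other cells switch on within minutes of a stimulus, summed to 196, 205 and 227 CPM. Ier2 had 89.4, 97.1 and 99.5 TPM, Fos 8.69, 11.7 and 12.01 TPM and Egr1 25.1, 26.7 and 32.7 TPM, and Npas4, which answers to neuronal calcium entry, had 0, 0 and 1 counts. Of the 8 genes that passed the count minimum, Arc was variable, with 0.564, 1.36 and 0.971 CPM. The 79 ribosomal protein genes held 65204, 57774 and 57362 CPM, 6.01% of the reads on average. Replicate 1 was the highest pool for 73 of them, against 38.3% of all genes tested, but Rps27 alone was variable, highest in replicate 3.

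When the lists were ordered by the median TPM of their genes, ribosomal proteins came first with 1742, 1510.2 and 1472 TPM and cochlear fibrocytes next with 267, 379 and 390.3 TPM. Schwann cell and satellite glia had 123, 168 and 143 TPM, supporting cells 156, 108 and 105 TPM, the tectorial membrane 157, 99.04 and 69.7 TPM and cartilage and bone 51.6, 103 and 124 TPM, and the ranges of neighbours in this group overlapped. They were followed by the stria vascularis list, carried by its transport genes, with 48.5, 48.4 and 45.4 TPM, and by the mesenchymal matrix and basement membrane lists with 36.1, 45.04 and 38.9 and 38.3, 41.1 and 37.5 TPM, which overlapped. Inner hair cell genes had 19.8, 23.7 and 22.3 TPM, spiral ganglion genes 18.3, 20.1 and 14.3 TPM, outer hair cell genes 17.1, 14.6 and 15.1 TPM and shared hair cell genes 13.4, 11.04 and 11.6 TPM. From the inner hair cell list down to the shared hair cell list, with erythroid, macrophage, immediate-early and endothelial genes between them, each list overlapped the next in the range of its pools. The order among these lists depended on the transcript assumed. With the median annotated transcript the median TPM was 12.04 for inner, 29.4 for outer and 13.4 for shared hair cell genes and 9.55 for spiral ganglion genes, so that the outer hair cell list lay above the inner one. Melanocyte genes, with 3.61, 3.75 and 3.65 TPM, central glia, cell division and muscle genes closed the order. A median TPM compares the genes picked for each list and not the number of cells.

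**Figure D3:**
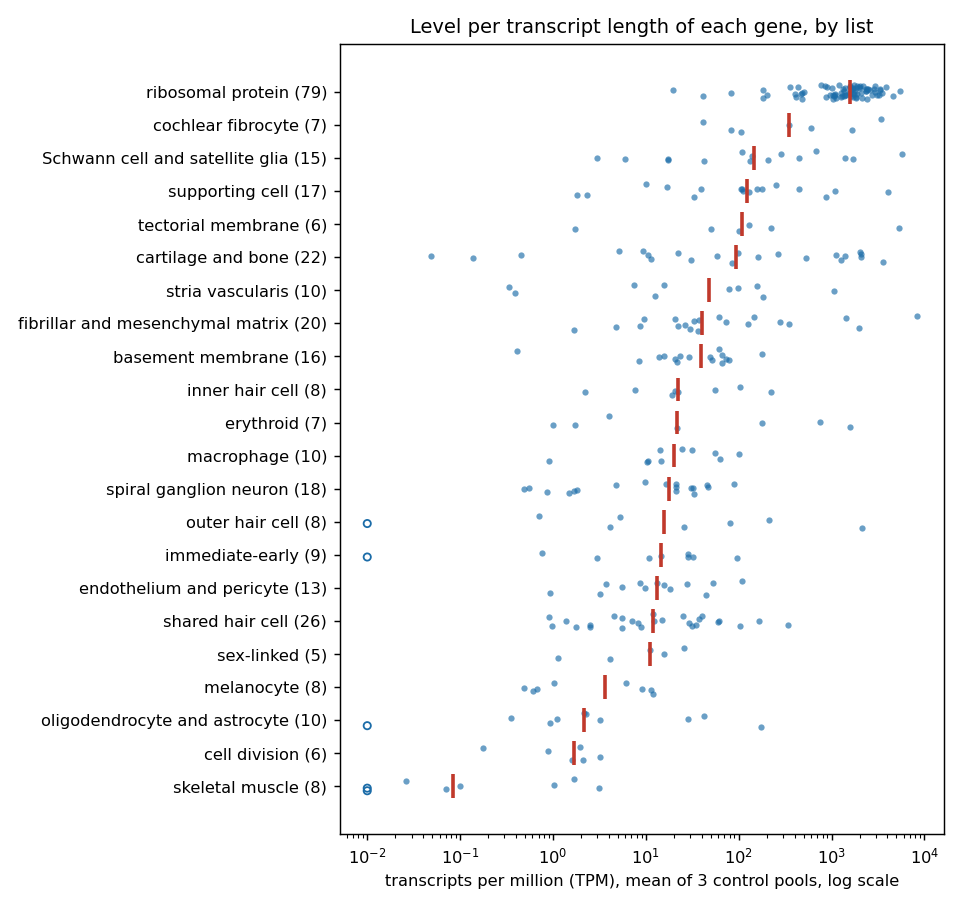
The mean TPM of each gene over the 3 control pools (x axis, log scale) is plotted by list (y axis, with the number of genes), each point a gene and each red bar the median TPM of the list. Open circles at the left edge are genes under 0.01 TPM. The lists span from medians of 1575 TPM for ribosomal proteins to 0.0834 TPM for muscle, and within the outer hair cell list Ocm stands far to the right of the other genes.

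The summed level of some lists moved more between the pools than that of others. The summed CPM differed between the highest and lowest pool by 1.05-fold for shared hair cell genes, 1.06-fold for inner hair cell genes, 1.21-fold for outer hair cell genes, 1.06-fold for macrophages and 1.04-fold for the stria vascularis. These sums are weighted to the genes with the most reads of each list, and many single hair cell genes varied more than their sums. It differed by 2.52-fold for erythroid genes, 1.57-fold for the tectorial membrane, 1.55-fold for fibrocytes and 1.52-fold for neurons. Replicate 1 was the highest pool in the summed tectorial membrane genes, in erythroid and central glial genes and in the variable supporting cell genes, and the lowest in bone, fibrocyte and Schwann cell genes. In tests across all genes the highest pool of a variable gene was replicate 1 for 590 genes (3.86%), replicate 2 for 653 (4.27%) and replicate 3 for 414 (2.71%).

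**Figure D4:**
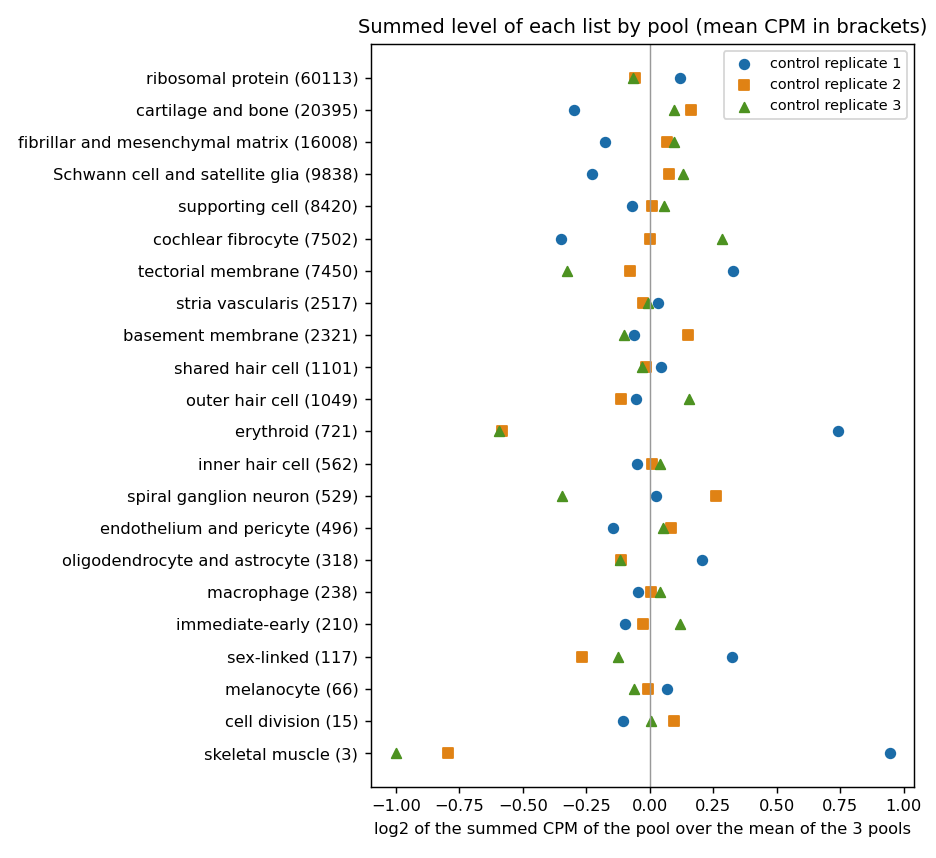
The summed CPM of each list in each control pool is plotted as the log2 ratio to its mean over the 3 pools (x axis), with the lists (y axis) ordered by that mean, given in brackets. The 3 pools nearly coincide for shared and inner hair cell, macrophage and stria vascularis lists, while replicate 1 lies to the right for erythroid and tectorial membrane genes and to the left for cartilage and bone and fibrocytes.

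**Figure D5:**
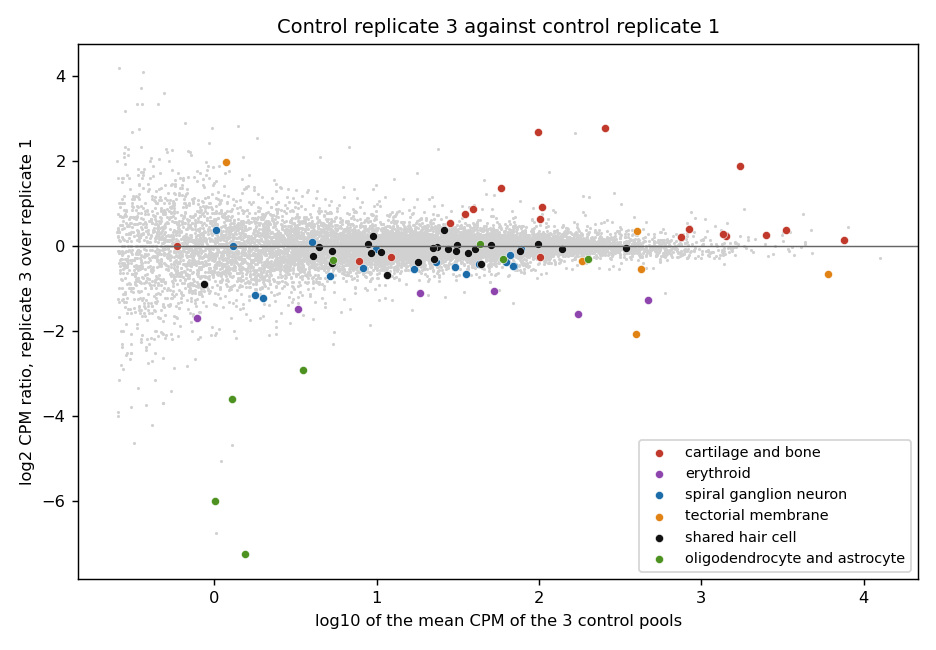
The log2 CPM ratio of control replicate 3 over control replicate 1 (y axis) is plotted against the log10 mean CPM (x axis) for each gene with at least 10 counts on average and a count in both pools, with 6 lists in colour. Shared hair cell genes lie near 0 (median -0.0939), erythroid genes lie below it (median -1.48) and cartilage and bone genes mostly above it (median 0.387).

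The pools also differed in the sex-linked genes and, weakly, with transcript length. Xist, which is transcribed from the inactive X chromosome of females, had 0, 15.3 and 9.91 CPM, so that replicate 1 held no read of it. The Y-linked genes Ddx3y, Uty, Kdm5d and Eif2s3y were highest in replicate 1, with 63.4, 40.4 and 46.2 CPM for Ddx3y, and replicates 2 and 3 held reads of both kinds. The log2 ratio between pools followed transcript length weakly, with Spearman's rho across at least 15155 genes of 0.146 for replicate 2 over 1, -0.0533 for replicate 3 over 1 and -0.225 for replicate 3 over 2. With offsets for transcript length and GC content, chosen after seeing the data, 9 cartilage and bone genes, 10 spiral ganglion genes, 7 erythroid genes and 5 supporting cell genes were variable, and no shared hair cell gene. The part of sex in the differences between pools was not tested, and pool and sex makeup cannot be told apart with 3 pools.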

How the data were processed

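RNA of 3 control pools was analysed, and the 3 Kir2.1-OE libraries were not used here. The authors selected poly(A) RNA, sequenced it in paired ends, ran a NextFlow RNA pipeline against mm10 and deposited Salmon estimated counts per gene symbol, 1 library per pool (tool versions and annotation: not given in the sources used here). The column header of control replicate 1 carries another number than its label, and the file was assigned by its sample record. Here the estimated counts, of which 6.80% were not whole, were rounded for count tests. CPM used the total of each library, between 37063812 and 41205047. TPM used the longest transcript in GENCODE vM21 (23379 of 24411 symbols matched, 651 more through an older symbol, 381 not), and genes of the mitochondrial genome were not analysed here. Variable genes had a mean of at least 10 counts, an adjusted p-value under 0.05 (Benjamini-Hochberg, chi-square test of the 3 counts against the totals) and a CPM ratio of at least 1.5. The test was run on simulated pools with counting error alone and known changes in 1 pool. Such pools lack the further spread of real pools, so this run does not measure the errors of the calls made here. The coefficient of variation came from edgeR 4.0.16 (R 4.3.3), with DESeq2 1.42.0 as an alternative, and other scalings, minima, transcripts and each replicate left out were tried. There was 1 group, so conditions were not compared. Named were the 20 highest genes, the 10 most variable with at least 10 CPM and genes of 22 lists, and the members and lists were chosen with earlier results of these data known. Values of some genes are not reported here. RNA of different animals was pooled, so spread between single animals was not measured.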

Additional observations from a re-analysis of the deposited data

How the results depend on the processing

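No paired analysis was possible because a single group was used. The 1657 variable genes became 805 with a minimum mean of 100 counts (12677 genes tested) and 722 with a ratio of at least 2, and between 742 and 1015 when 1 replicate was left out, where 2 pools are compared in place of 3. With TMM, DESeq2 size factors, upper quartile factors, no count minimum and the added offsets for length and GC content the count lay between 1580.0 and 2050.0, and 1588 of the 1622 genes called with TMM were among the 1657. The coefficient of variation of 0.108 was 0.0649 as the median of DESeq2 gene-wise estimates and lay between 0.0945 and 0.117 with 1 replicate left out. Of the 20 highest genes by CPM 11 were shared with TPM, and 12 of the 20 highest by TPM with the median transcript, which also moved the median TPM of 12 of 22 lists beyond their SD. Leaving the 100 highest genes out of the library size raised every level by construction, and 20 of 22 summed CPM then moved beyond the SD of the pools. They came to 1390.3 for shared, 710.3 for inner and 1325 for outer hair cells, 10634.5 for supporting cells, 9404 for the tectorial membrane, 668 for neurons, 12426 for Schwann cells, 402 for central glia, 20219 for mesenchymal matrix, 25762 for cartilage and bone, 2931 for basement membrane, 9479 for fibrocytes, 3179 for stria, 83.0 for melanocytes, 300.4 for macrophages, 626 for endothelium, 19.4 for cell division, 265 for immediate-early, 75903.5 for ribosomal protein and 148 for sex-linked genes. TMM, upper quartile factors and leaving out a replicate moved none of the 22 sums beyond that SD. Genes near the minimum of 10 counts are limited by depth, and with 3 pools the spread itself is known only roughly.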
